A study of Mus musculus with 14 samples.

Results

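The E2F and retinoblastoma family was taken as 10 genes of 21440 protein-coding genes with a placed start, and each was described by the H3K4me3 peaks lying within 1 kb of its start. The activator E2Fs were E2f1, E2f2 and E2f3. The repressor E2Fs were E2f4, E2f5, E2f6 and E2f8, and the pocket proteins were Rb1, Rbl1 and Rbl2, which encode pRb, p107 and p130. H3K4me3 is a histone mark of active gene starts, and CUT&Tag maps it by cutting and tagging DNA beside the bound antibody. Peak lists of sorted LSK (Lin-Sca1+cKit+) cells, the bone marrow fraction that holds hematopoietic stem and progenitor cells (HSPCs), came from male C57BL/6J mice that had been fed a high-fat diet (HFD-LSK, n = 3 libraries) or a low-fat diet (LFD-LSK, n = 4 libraries) for some months from a young age. The labels do not say whether each library came from its own mouse or from a pool, so the p-values measure the spread between these libraries, which may be technical. The study asked whether diet-induced obesity changes where HSPCs carry H3K4me3.

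E2F proteins are transcription factors that bind the promoters of genes for DNA replication and the cell cycle. Activator E2Fs switch these genes on when a cell enters S phase. Pocket proteins bind E2Fs and hold their targets back until cyclin-dependent kinases phosphorylate them, E2f4 and E2f5 work mainly with p107 and p130 in resting cells, E2f6 represses without a pocket protein, and E2f8 is an atypical repressor that binds DNA without a DP partner. Stem cells of the marrow are mostly at rest, whereas progenitors divide often, and the LSK gate holds both.

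The 7 lists held between 6921 and 13094 peaks. LFD-LSK replicate 4 had the shortest list and HFD-LSK replicate 2 the longest. These 2 lists placed a peak at 28.5% and 49.2% of coding starts. The lists give no total of reads, but fold and p of a peak together return the fragments at its summit, and the fewest with which a peak was called ranged from 4 in HFD-LSK replicate 3 to 21 in LFD-LSK replicate 1. Of 10 marker genes of LSK and progenitor cells, between 6 and 8 had a start peak in each list, and Kit, Cd34, Meis1, Gata2 and Tal1 had one in all 7. Ly6a, which encodes the Sca1 of the gate, and Lmo2 had none at the start used here. None of the 4 T cell, 4 B cell or 4 granulocyte and macrophage markers had a start peak in any list, and of 4 erythroid markers up to 3 did, Klf1 in 5 lists.

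The promoters of a few members are shown, picked for the number, width or position of their peaks. They are the 250 bases before RefSeq starts on GRCm38.p6, read in the direction of transcription, and that of E2f8 precedes a start 477 bp inside the outermost one. E2f2 had the fewest calls, and E2f3 had the widest peaks and 2 starts under them. The E2f8 summits lay 530 to 1063 bp past its outermost start, and Rbl1 and Rbl2 had a peak in every list. Capitals mark E2F words (TTTCGCGC, TTTGGCGC, TTTCCCGC or TTTGCCGC) and CHR words (TTTGAA or TTCGAA, bound by the MuvB complex that works with pocket proteins and repressor E2Fs), on either strand.
E2f2 (chr4:136172024-136172273, plus strand): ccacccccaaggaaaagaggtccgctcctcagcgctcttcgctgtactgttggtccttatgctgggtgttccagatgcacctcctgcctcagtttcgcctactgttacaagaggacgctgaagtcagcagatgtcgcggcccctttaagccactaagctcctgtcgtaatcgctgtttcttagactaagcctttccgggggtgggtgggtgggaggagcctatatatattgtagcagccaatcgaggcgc
E2f3 first start (chr13:29986064-29986313, minus strand): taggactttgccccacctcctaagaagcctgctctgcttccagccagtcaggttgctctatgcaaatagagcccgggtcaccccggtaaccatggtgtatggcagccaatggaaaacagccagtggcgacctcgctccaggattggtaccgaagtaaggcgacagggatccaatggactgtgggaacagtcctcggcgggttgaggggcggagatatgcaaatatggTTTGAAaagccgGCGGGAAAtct
E2f3 second start (chr13:29984392-29984641, minus strand): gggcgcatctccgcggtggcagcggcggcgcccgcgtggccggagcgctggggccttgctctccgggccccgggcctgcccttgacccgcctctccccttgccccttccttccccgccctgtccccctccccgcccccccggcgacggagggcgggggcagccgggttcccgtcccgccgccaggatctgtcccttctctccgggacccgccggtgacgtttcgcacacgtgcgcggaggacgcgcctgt
E2f8 (chr7:48881597-48881846, minus strand): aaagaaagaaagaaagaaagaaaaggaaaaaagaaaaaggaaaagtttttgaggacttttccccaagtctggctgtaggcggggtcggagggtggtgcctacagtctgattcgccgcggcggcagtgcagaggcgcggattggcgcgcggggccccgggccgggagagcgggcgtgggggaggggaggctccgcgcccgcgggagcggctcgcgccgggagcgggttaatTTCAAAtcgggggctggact
Rbl1 (chr2:157204535-157204784, minus strand): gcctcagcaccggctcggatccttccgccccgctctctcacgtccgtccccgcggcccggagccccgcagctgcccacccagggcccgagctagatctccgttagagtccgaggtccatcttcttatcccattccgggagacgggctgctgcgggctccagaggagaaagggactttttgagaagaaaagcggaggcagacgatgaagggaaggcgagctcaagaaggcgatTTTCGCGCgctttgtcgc
Rbl2 (chr8:91069807-91070056, plus strand): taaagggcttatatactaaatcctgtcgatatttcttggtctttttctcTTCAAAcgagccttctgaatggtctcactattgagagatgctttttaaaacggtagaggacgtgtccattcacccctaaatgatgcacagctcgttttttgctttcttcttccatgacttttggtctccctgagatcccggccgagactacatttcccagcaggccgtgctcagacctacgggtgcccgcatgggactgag

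Promoter windows of 300 bases, reaching past the start, were at hand for 7 of the 10 members, which have 9 windows. E2F words stood in 3 of the 9 windows, against 2.85% of 21262 windows of coding genes, and CHR words in 4 of the 9, against 17.6%. The first start of E2f3 had both, a TTTGAA at positions -23 to -18 and a TTTCCCGC on the opposite strand at -11 to -4, where 0 is the start. Rbl1 had a TTTCGCGC at -18 to -11. E2f2 had a TTTGGCGC at 39 to 46, past the end of the stretch shown. CHR words alone stood in the windows of E2f8 at -20 to -15, Rbl2 at -201 to -196 and the second E2f2 start at -31 to -26. The windows of E2f6 and E2f1, the latter at an inner start, held neither. These 2 windows are not shown above, although E2f6 also had a peak in every list. The members differed in CpG content. The E2f1 window had 48 CpG dinucleotides and the second E2f3 window 37, against a median of 13.0 over all windows, whereas Rbl2 had 14 and the second E2f2 window 7. A word match is a match of letters and not a bound site.

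All 10 members had a start peak in at least 1 list, as did 51.3% of coding starts. E2f6, Rbl1 and Rbl2 had one in all 7 lists, which is 3 of 10 members against 20.2% of coding starts. Of the coding starts called in at least 1 list, 39.4% were called in all 7 and 23.9% in 6. Another 6 members were called in 6 lists, a count held by 12.3% of coding starts, and E2f2 was called in 4. In all, 61 of 70 possible calls were made. Of the 9 gaps, 5 were in 1 library. E2f1, E2f3, E2f4 and Rb1 were called in every list but LFD-LSK replicate 4, a pattern they shared with 1506 coding starts. E2f2 was missing there too, as well as in HFD-LSK replicate 1 and LFD-LSK replicate 3. E2f5 was missing in HFD-LSK replicate 3 and E2f8 in LFD-LSK replicate 1. With LFD-LSK replicate 4 left out, 7 members were called in all lists that remained, against 27.2% of coding starts, and without LFD-LSK replicates 1 and 4, the 2 shortest lists, 8 were, against 32.0%. LFD-LSK replicate 4 also placed a peak at the fewest coding starts, and the part of its short list in any single gap was not tested.

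By class, the activators had 16 of 21 possible calls, the repressors 25 of 28 and the pocket proteins 20 of 21. Over all coding starts, 39.4% of possible calls were made, 43.7% in HFD-LSK and 36.2% in LFD-LSK lists, and over those called in at least 1 list the shares were 76.9%, 85.3% and 70.6%. LFD-LSK replicate 4 had a peak at none of the 3 activators, at 3 of the 4 repressors and at 2 of the 3 pocket proteins. In the HFD-LSK lists the activators had 8 of 9 calls, the repressors 11 of 12 and the pocket proteins 9 of 9. In the LFD-LSK lists these counts were 8 of 12, 14 of 16 and 11 of 12.

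Where a call was missing, the next peak was usually far away. The distance from the start to the nearest peak was 33595 bp for E2f1 and 182625 bp for Rb1 in LFD-LSK replicate 4, and 92474 bp for E2f8 in LFD-LSK replicate 1. E2f3 was the exception. In LFD-LSK replicate 4 a peak of 581 bp lay 1174 bp inside the gene and covered the second E2f3 start, so E2f3 was called in all 7 lists within 3 kb or when any RefSeq start counted.

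Peaks were ranked within each list by fold enrichment, the summit over its local background, because fold is not comparable between libraries. A rank is given as a percent of the list, so that a low value is a strong peak. Over the lists with a call, E2f8 stood nearest the top with a mean of 20.7% ± 21.1 (SD, n = 6 lists), followed by E2f3 with 24.8% ± 16.4 (n = 6), Rbl1 with 29.1% ± 27.6 (n = 7), Rbl2 with 31.3% ± 14.5 (n = 7), Rb1 with 34.0% ± 27.5 (n = 6), E2f6 with 34.4% ± 19.6 (n = 7) and E2f5 with 39.4% ± 27.8 (n = 6). E2f1 with 55.5% ± 18.1 (n = 6), E2f4 with 57.3% ± 23.0 (n = 6) and E2f2 with 67.3% ± 37.7 (n = 4) formed the lower end. No neighbors in this order differed by more than their spread between lists. E2f2 and E2f4 did not separate from the upper end within lists. E2f2 ranked nearer the top than E2f8 in 1 of the 3 lists that called both. E2f4 ranked nearer than E2f8 in 2 of 5 and nearer than E2f3 in 1 of 6. E2f1 did separate from the upper end, with E2f8 nearer the top in all 5 lists that called both and E2f3 in all 6. Some other pairs kept 1 order too, with Rbl2 nearer the top than E2f1 in all 6 lists that called both and E2f6 nearer than E2f4 in all 6.

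**Figure D1:**
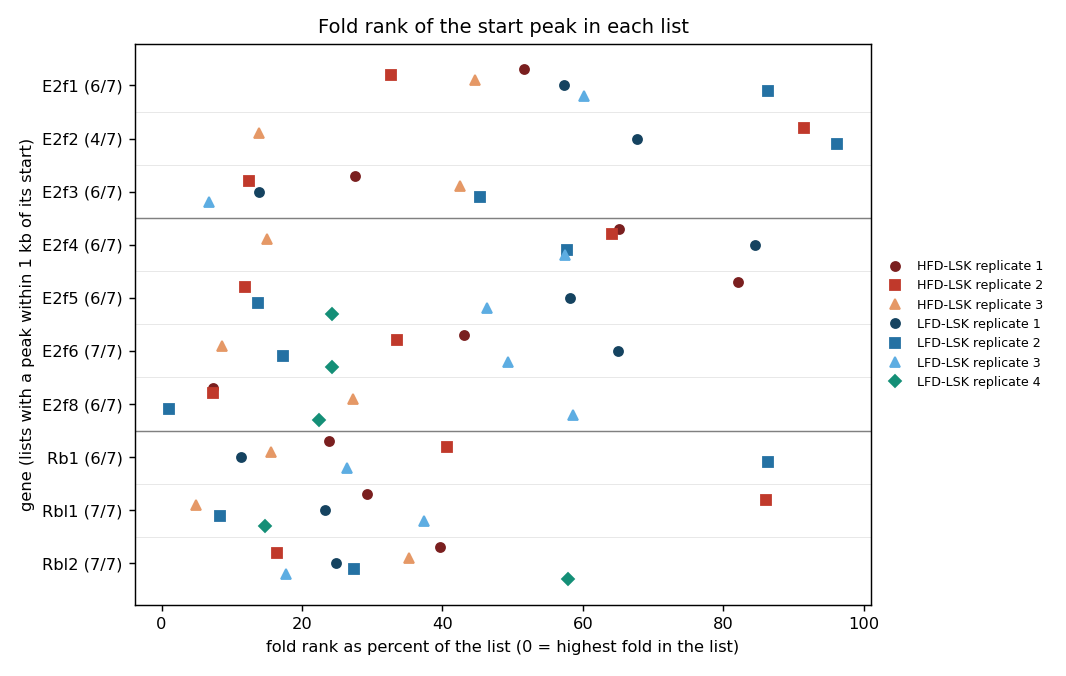
Fold rank of the start peak of each member, as percent of its list (x axis, 0 is the highest fold), by gene (y axis, with the number of lists that called it) and library (symbol and color). Each point is 1 list, and gray lines part the activator E2Fs, the repressor E2Fs and the pocket proteins. HFD-LSK and LFD-LSK points overlap for 9 of the 10 genes, and E2f1 has its HFD-LSK points between 32.6% and 51.6% and its LFD-LSK points between 57.3% and 86.4%.

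Among the activators, E2f1 is itself an E2F target, and it started at chromosome 2, position 154569892, on the minus strand. Its rank was 51.6%, 32.6% and 44.6% of the list in HFD-LSK replicates 1 to 3. In LFD-LSK replicates 1 to 3 it was 57.3%, 86.4% and 60.2%. The HFD-LSK and LFD-LSK values did not overlap, as for 5.1% of coding starts called in these 6 lists whose percents were all lower in HFD-LSK, but LFD-LSK replicate 4 has no value and no test was made. As raw ranks the groups did overlap, with 4742, 4270.5 and 5347 in HFD-LSK and 4266, 9133.5 and 6228 in LFD-LSK. E2f2, an activator expressed in blood cell precursors, ranked at 91.5% and 13.9% in HFD-LSK replicates 2 and 3 and at 67.7% and 96.2% in LFD-LSK replicates 1 and 2, so that 3 of its 4 peaks lay in the weaker part of their lists. E2f3, which makes a longer and a shorter protein from its 2 starts, ranked at 27.6%, 12.4% and 42.5% in HFD-LSK and at 13.9%, 45.3% and 6.8% in LFD-LSK replicates 1, 2 and 3. Its values from the diets were interleaved.

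Among the repressors, E2f4, the most abundant E2F of many resting cells, ranked at 65.1%, 64.1% and 15.0% in HFD-LSK and at 84.5%, 57.7% and 57.4% in LFD-LSK replicates 1, 2 and 3. E2f5, its closest relative, ranked at 82.1% and 11.9% in HFD-LSK replicates 1 and 2 and at 58.2%, 13.7%, 46.3% and 24.2% in LFD-LSK. E2f6, which acts within polycomb complexes, ranked at 43.0%, 33.5% and 8.55% in HFD-LSK and at 65.0%, 17.3%, 49.3% and 24.2% in LFD-LSK. E2f8 had the strongest peak of the whole family, at 1.04% of LFD-LSK replicate 2, where it ranked 110 by fold. It ranked at 7.40%, 7.38% and 27.2% in HFD-LSK, and at 58.6% and 22.4% in LFD-LSK replicates 3 and 4. For each of the 4 repressors the values from the diets overlapped.

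Among the pocket proteins, Rb1, which encodes the retinoblastoma protein, ranked at 23.8%, 40.7% and 15.6% in HFD-LSK and at 11.3%, 86.3% and 26.4% in LFD-LSK replicates 1, 2 and 3. Rbl1, itself an E2F target, ranked at 29.2%, 86.1% and 4.88% in HFD-LSK and at 23.3%, 8.33%, 37.4% and 14.7% in LFD-LSK. Rbl2, the pocket protein of resting cells, ranked at 39.7%, 16.5% and 35.3% in HFD-LSK and at 24.8%, 27.4%, 17.7% and 57.9% in LFD-LSK. Rb1 and Rbl1 each had 1 list that stood far from the others, LFD-LSK replicate 2 for Rb1 and HFD-LSK replicate 2 for Rbl1. Rbl2 had its weakest percent in LFD-LSK replicate 4, but by raw rank HFD-LSK replicate 3 stood lower, at 4225.5 against 4010.5.

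For Rbl1 and Rb1 the list that stood apart had a high local background at the start. Rbl2 in LFD-LSK replicate 4 did not, with 19 fragments and 2.11 times the lowest background of the list. Rbl1 in HFD-LSK replicate 2 had 60 fragments at its summit and a local background 26.6 times the lowest of that list, and it ranked 11269 by fold but 3467 by fragments. Rb1 in LFD-LSK replicate 2 had 32 fragments and a background 18.6 times the lowest, and ranked 9119 by fold but 5460.5 by fragments. E2f5 in HFD-LSK replicate 1 had 54 fragments and a background 25.0 times the lowest, and ranked 7545.5 by fold but 2493 by fragments. In all, 9 of 61 member calls, 14.8%, had a background over 10 times the lowest of their list, against 13.0% of 58848 calls at coding starts. The background of HFD-LSK replicate 3 differed from that of the other lists, and its median background was 9.45 times its lowest, against 1.0 to 1.41 times in the others. There E2f2, E2f4, E2f6, Rb1 and Rbl1 ranked high by fold, between 4.88% and 15.6% of the list, with 13 to 20 fragments at their summits, where the median peak had 15.0. The part of the background in these ranks was not tested.

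**Figure D2:**
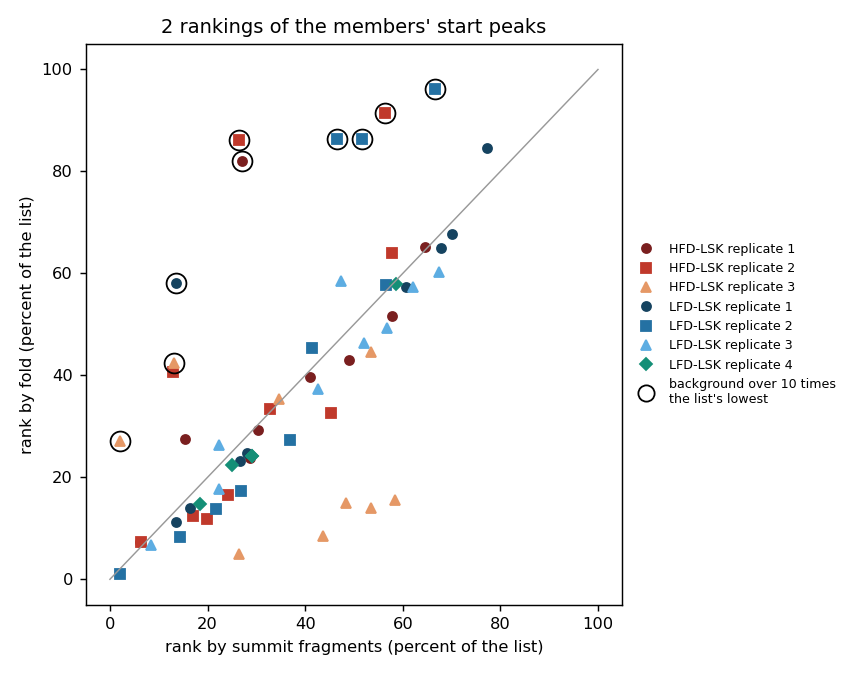
Rank of each member's start peak by fragments at its summit (x axis, percent of the list) and by fold (y axis, percent of the list). Each point is 1 gene in 1 list, colors and symbols give the library, rings mark the 9 calls with a background over 10 times the lowest of their list, and the gray line marks equal ranks. The ringed calls lie above the line, and 5 calls of HFD-LSK replicate 3 lie well below it.

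Width set E2f3 apart from the rest of the family. Its start peak was 3117, 3823 and 2740 bp wide in HFD-LSK and 2959, 793 and 3651 bp wide in LFD-LSK replicates 1, 2 and 3. In 5 of these 6 lists it stood among the widest 1.31% of peaks, and its median place by width was 0.525% of the list. The exception was LFD-LSK replicate 2, where the start peak ended 132 bp past the start and a second peak of 1719 bp began 597 bp inside the gene. In LFD-LSK replicate 4, which had no start peak, the peak inside the gene was 581 bp wide. The marked domain reached from as far as -941 bp, upstream of the first start, to 2881 bp past it and took in the second start, 1673 bp downstream. The second start was covered by a peak in all 7 lists and the first in 6.

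The other members had median widths from 663.0 bp for E2f5 and 705.5 bp for E2f4 to 1425.0 bp for E2f8 and 1535.0 bp for Rb1, beside a median of 1076.0 bp over the 4332 coding starts called in all 7 lists. E2f4 was narrower than Rb1, Rbl1, E2f1 and E2f3 in every one of the 6 lists that called it. Rbl1 was wider than Rbl2 in all 7 lists. E2f4 had its narrowest peak, 340 bp, in LFD-LSK replicate 1, and the narrowest of the family was Rbl2 in LFD-LSK replicate 4 at 257 bp, a list with a median width of 525.0 bp.

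**Figure D3:**
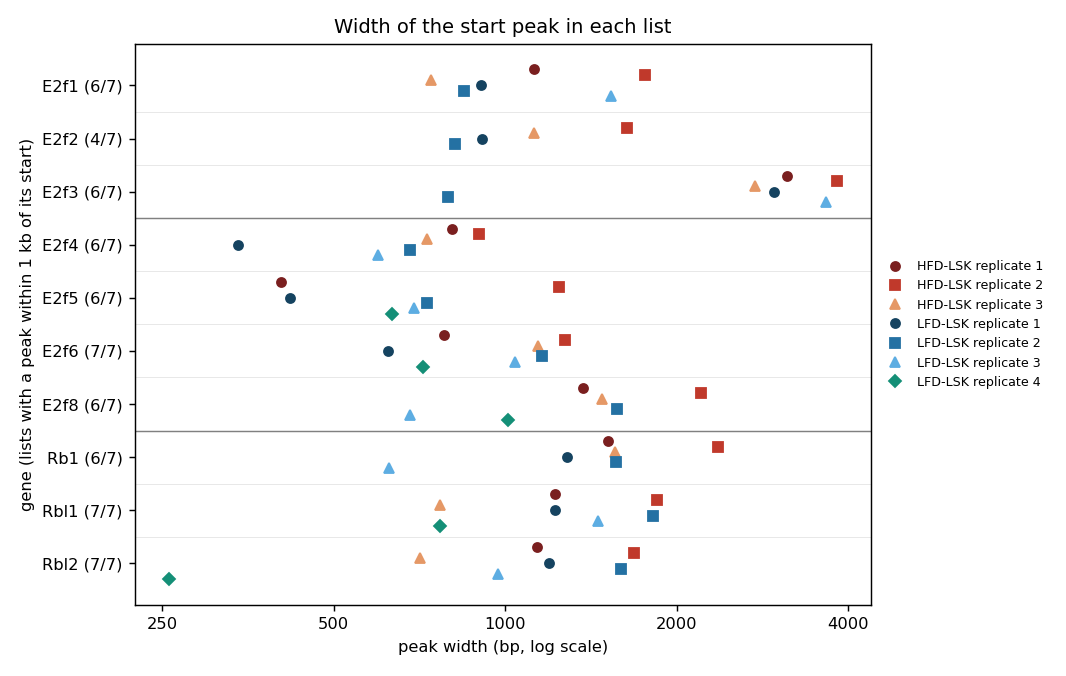
Width of the start peak of each member (x axis, bp, log scale), by gene (y axis) and library (symbol and color), with 1 point a list. E2f3 lies at 2740 bp or more in 5 of its 6 lists, and E2f4 and E2f5 are the narrowest by their medians.

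Summits of the members lay inside the gene in 59 of 61 calls, 96.7%, with a median of 265.0 bp past the start, against 70.0% and 128.0 bp over the calls of the 4332 coding starts. The exceptions were E2f3 in LFD-LSK replicate 2 at -59 bp and Rb1 in LFD-LSK replicate 1 at -30 bp. Rb1 summits were nearest the start, with a median of 52.5 bp, and Rbl1, E2f5 and E2f1 followed with 230.0, 224.5 and 220.5 bp. E2f8 summits lay 530 to 1063 bp past its outermost start. A second RefSeq start of E2f8, 477 bp inside the gene, lies before all of these summits and was covered by a peak in 5 lists. The lncRNA gene Gm2788 begins near the summits too, 773 bp inside E2f8 on the opposite strand, so these peaks cannot be given to E2f8 alone. E2f2 summits lay 523 to 847 bp inside the gene. Exoc3l starts 697 bp before E2f4 on the opposite strand, and none of the E2f4 peaks reached it.

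**Figure D4:**
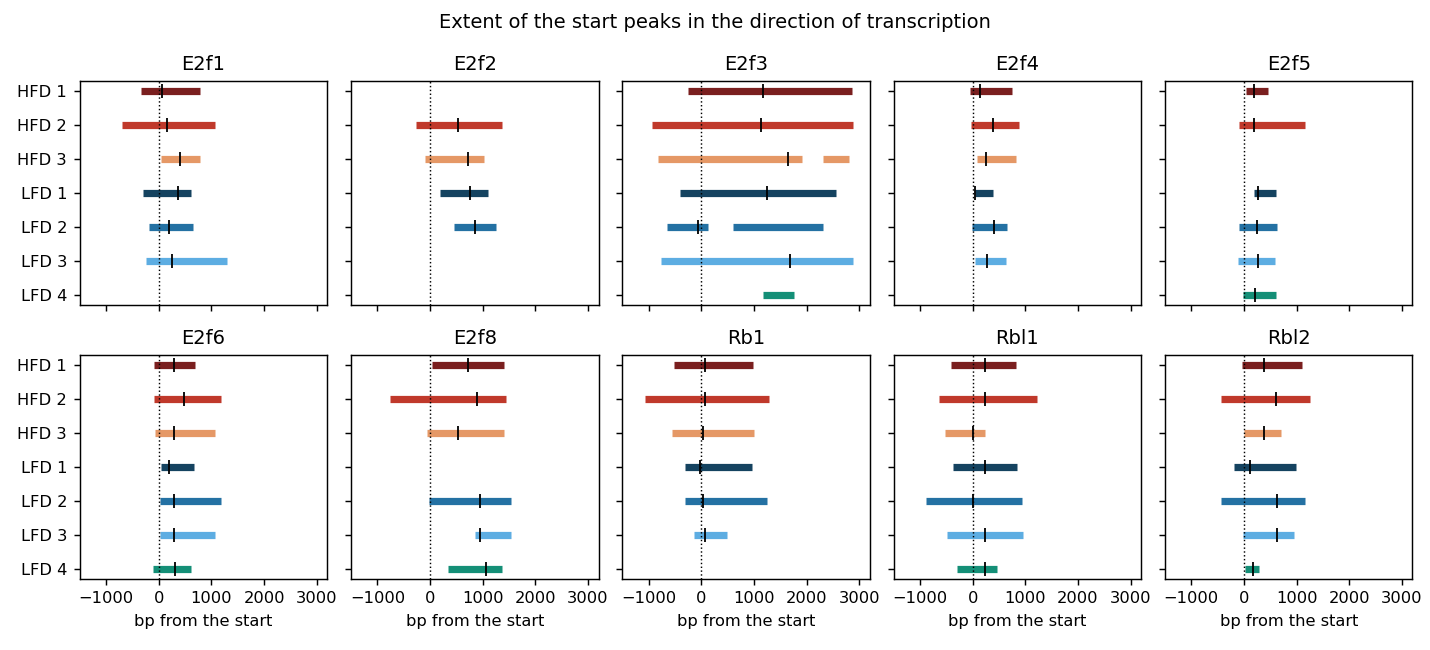
Extent of the start peaks of the 10 members in each list (y axis) in bp from the gene start (x axis, positive in the direction of transcription). Bars are peaks, black ticks their summits and the dotted line the start, and for E2f3 all peaks near both starts are drawn. The E2f3 domain reaches 2881 bp past the start, E2f8 bars lie mostly inside the gene, and E2f4 bars lie almost wholly past the start, with little before it.

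The classes did not stand in a fixed order. Median fold ranks of the activators were 39.6%, 32.6% and 42.5% of the list in HFD-LSK and 57.3%, 86.4% and 33.5% in LFD-LSK replicates 1, 2 and 3. Those of the repressors were 54.1%, 22.7% and 15.0% in HFD-LSK and 65.0%, 15.5%, 53.3% and 24.2% in LFD-LSK. Those of the pocket proteins were 29.2%, 40.7% and 15.6% in HFD-LSK and 23.3%, 27.4%, 26.4% and 36.3% in LFD-LSK, the narrowest range of the 3 classes. The pocket proteins ranked nearer the top than the activators in 5 of 6 lists and nearer than the repressors in 3 of 7, and the activators nearer than the repressors in 3 of 6. By width, the pocket proteins were above the repressors in 5 of 7 lists. These medians are over 3 or 4 genes and describe the lists without a test.

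No member separated the diets by its calls. E2f5 had a peak in 2 of the 3 HFD-LSK and in each of the 4 LFD-LSK lists (Fisher's exact test, two-sided, p = 0.429), and for each of the other 9 members the same test gave p = 1.0. The smallest p that 3 against 4 libraries allow is 0.0286. Over coding starts, 0.154% were called in all HFD-LSK and no LFD-LSK list and 0.0% in the opposite way.

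Ranks and widths of E2f6, Rbl1 and Rbl2 were tested between the diets, as for the 4332 coding starts called in all lists. For E2f6 the raw ranks were 3952, 4381.5 and 1023.5 in HFD-LSK and 4843.5, 1825, 5099 and 1675 in LFD-LSK. The mean rank was 3119 ± 1827 (SD, n = 3) in HFD-LSK and 3361 ± 1864 (n = 4) in LFD-LSK, a difference of -241.6 (two-sided exact permutation p = 0.886; adjusted over all starts p = 0.975). The HFD-LSK and LFD-LSK ranks of E2f6 overlapped, and the direction turned without HFD-LSK replicate 3 (806.1), LFD-LSK replicate 1 (252.7) or LFD-LSK replicate 3 (337.8) and in ranks by fragments (725.5).

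For Rbl1 the raw ranks were 2678, 11269 and 585 in HFD-LSK and 1733.5, 880.5, 3870.5 and 1014 in LFD-LSK. Its mean rank was 4844 ± 5662 (SD, n = 3) in HFD-LSK and 1875 ± 1382 (n = 4) in LFD-LSK, so that Rbl1 lay 2969 places lower in the HFD-LSK lists (two-sided exact permutation p = 0.429; adjusted p = 0.933). The difference rested on HFD-LSK replicate 2, described above for its background, and was -243.1 without it. For Rbl2 the raw ranks were 3649, 2162 and 4225.5 in HFD-LSK and 1848, 2901, 1829 and 4010.5 in LFD-LSK, and the mean differed by 698.4 (two-sided exact permutation p = 0.4; adjusted p = 0.924). That difference was close to the median of 698.0 over all tested starts, beside HFD-LSK lists that held more peaks on average. It was 22.12 in ranks among the starts called in all 7 lists and -1.463 percentage points as percent of the list, and it ran from 258.4 without HFD-LSK replicate 3 to 1290.0 without HFD-LSK replicate 2. Over all tested starts, 0.277% ranked nearer the top in HFD-LSK at p under 0.05 and 3.55% farther from it, and no adjusted p was below 0.746.

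Widths gave the same picture. E2f6 was 781, 1272 and 1142 bp wide in HFD-LSK and 624, 1161, 1039 and 718 bp in LFD-LSK, wider by 179.5 bp in HFD-LSK (two-sided exact permutation p = 0.4; adjusted p = 0.738). Rbl2 was 1136, 1683 and 708 bp wide in HFD-LSK and 1194, 1597, 973 and 257 bp in LFD-LSK, a difference of 170.4 bp (two-sided exact permutation p = 0.714; adjusted p = 0.852), which became -79.0 bp without LFD-LSK replicate 4. Both genes had overlapping widths in the 2 diets.

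Rbl1 was 1223, 1848 and 768 bp wide in HFD-LSK and 1225, 1814, 1453 and 767 bp in LFD-LSK, a difference of -35.1 bp (two-sided exact permutation p = 0.914; adjusted p = 0.956). The direction turned without HFD-LSK replicate 3 (220.8 bp) or LFD-LSK replicate 2 (131.3 bp), and also without LFD-LSK replicate 3, by a smaller amount. Of all tested starts, 92.5% were wider in HFD-LSK, with a median difference of 274.0 bp. At p under 0.05, 3.69% were wider in HFD-LSK and 0.0% narrower. When widths were ranked within each list instead, Rbl1 stood farther from the top in every HFD-LSK library than in any LFD-LSK library, by 2227 places (two-sided exact permutation p = 0.0286, the smallest the design allows; adjusted p = 0.799). In this ranking 3.25% of starts stood farther from the top in HFD-LSK at p under 0.05 and 0.162% nearer to it. As percent of the list, Rbl1's width ranks overlapped, with 24.7%, 19.8% and 49.0% in HFD-LSK and 15.7%, 10.2%, 13.8% and 24.8% in LFD-LSK.

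The partners of the family were marked in most lists. The 10 partner genes form E2F dimers, the DREAM and MuvB complexes or, like the H3K4 demethylase gene Kdm5a, bind pocket proteins. All 10 had a start peak in at least 1 list, as did 51.3% of coding starts. Lin9, Rbbp4 and Mybl2 had one in all 7, as did 20.2% of coding starts and 39.4% of those called in at least 1 list. Tfdp1 and Tfdp2, the DP partners, were missing in LFD-LSK replicate 4 alone, as were the MuvB genes Lin52 and Lin54 and Kdm5a. That pattern was held by 1506 coding starts. Lin37 was missing in HFD-LSK replicate 1. E2f7, the atypical E2F most like E2f8, was called in 3 of 3 HFD-LSK lists and in LFD-LSK replicates 2 and 4. Its pattern was shared by 78 coding starts, and calls in 5 lists by 5.68% of them. Rbbp4, which encodes a histone chaperone, was the partner nearest the top, with ranks from 27.5 to 10159. Of the 3 partners tested, 0 passed p under 0.05 in rank or width in either direction by the exact permutation test. Their rank differences were spread widely, with 2734.3 for Lin9, -61.1 for Mybl2 and -1810.3 for Rbbp4, against a median of 698.0 over all tested starts. Their median width difference was 433.0 bp, against 274.0 bp over all tested starts.

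Of 26 E2F target genes, 24 had a start peak in at least 1 list and 10 in all 7, against 51.3% and 20.2% of coding starts. Of the coding starts called in at least 1 list, 39.4% were called in all 7. LFD-LSK replicate 4, which called 28.5% of coding starts, had no peak at 13 of the targets. Another 7 targets were called in 6 lists, a count held by 12.3% of coding starts. Among them were the helicase genes Mcm2 and Mcm5, missing in LFD-LSK replicate 3, and Mcm6, Ccne2, Cdk1 and Brca1, missing in LFD-LSK replicate 4. Mcm3, Pola1 and Tyms were called in 5 lists and Cdc6, the replication licensing factor, in 4. Of the mitotic genes, Ccnb2 was called in 1 HFD-LSK and 1 LFD-LSK list and Bub1b in 2 HFD-LSK and 0 LFD-LSK lists. The thymidine kinase gene Tk1 was called in HFD-LSK replicate 2 alone. Calls in 2 lists were held by 3.12% of coding starts and a call in 1 list by 3.55%, and HFD-LSK lists made more calls in general. Rrm2, a ribonucleotide reductase subunit, had no start peak in any list, and the nearest peak in any list was 54096 bp away. Orc1 had none at its outermost start, but in 6 lists a peak covered a second RefSeq start. Cdk1 was the target nearest the top, with ranks from 456.5 to 2847. Of the 10 targets tested, 0 passed p under 0.05 in rank or width in either direction by the exact permutation test. Their median rank difference was 274.0 and their median width difference 278.0 bp, against 698.0 and 274.0 bp over all tested starts.

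Within the long Rb1 gene, on chromosome 14 from 73192858 to 73325951, a second peak was present in all 3 HFD-LSK lists and in LFD-LSK replicate 2. It lay 87280 to 87683 bp past the Rb1 start and ranked between 5013 and 10611. It lies at the start of Lpar6, a lysophosphatidic acid receptor gene nested in Rb1 on the opposite strand, which was named after its values were seen. The widths of this peak were 462, 1980 and 1072 bp in HFD-LSK and 1677 bp in LFD-LSK replicate 2. The remaining 3 LFD-LSK lists had no peak there, and no test was made, since the peak was singled out after its calls were seen. HFD-LSK lists made more calls in general. Over coding starts called in at least 1 list, they made 85.3% of possible calls and LFD-LSK lists 70.6%. Calls in 4 lists were held by 3.45% of coding starts.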

How the data were processed

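H3K4me3 CUT&Tag libraries of LSK cells (3 HFD-LSK, 4 LFD-LSK, grouped by their labels) were analyzed from 1 peak list each, and the 7 IgG libraries were not analyzed here. The titles of the libraries name CUT&RUN, while the protocols describe CUT&Tag. The 10 members, the gene lists and the tests were chosen with earlier results of these data known. According to the submitters' processing notes, reads were processed with Trim Galore, Bowtie2, Picard and MACS2 on GRCm38, with no versions given, while the paper's methods name GRCm39 and SEACR. The deposited lists are MACS2 narrow peaks called on single libraries, and their positions match gene starts of GRCm38. The authors deposited for each peak 4 values, namely the fold enrichment (the ratio of summit height to background height), the −log10 of the p-value and of the q-value, and a score.

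Gene starts were the outermost RefSeq starts of GRCm38.p6, with strand from the promoter table or, by symbol, from GENCODE, which placed 98.0% of coding genes. The peak of highest fold within 1 kb of a start was used. Ranks count from 1 at the highest fold of a list. Summit fragments and background were solved from fold and p under the MACS2 formulas, which gave a whole number for 97.2% to 100.0% of peaks in a list and 1 solution for 88.2% to 99.6%. Where several solutions fitted, the lowest background was taken that was not below about the lowest among peaks with 1 solution. Where none qualified, the lowest was taken. On simulated peaks at least 97.1% of fragment numbers were recovered. Diets were compared by Fisher's exact test on calls and by exact permutation over 35 splits, two-sided, with Benjamini-Hochberg adjustment over 4332 coding starts, on mean rank and on mean width, since the lists hold no read counts per gene. The alternatives were other windows, a q limit, lists of equal length, other rankings, the replicate block and each library left out. Named genes were every member, genes of the 2 lists called in fewer than 7 lists or past p under 0.05, the gene of each list nearest the top, and genes starting within 1 kb of a member's peak. A gene that this rule names is not reported here. Depth is unknown beyond the recovered fragments. Python with numpy, pandas and scipy was used.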

Additional observations from a re-analysis of the deposited data

How the results depend on the processing

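Calls, ranks and widths of the members were recomputed with 3 kb and 0.5 kb windows, a −log10 q of at least 5, lists of equal length and each library left out. Members called in all lists numbered 3 and stayed between 2 and 4 except where LFD-LSK replicate 4 was left out. Leaving out each library in turn gave 3 to 7 members, and leaving out LFD-LSK replicates 1 and 4, gave 8, and counting any RefSeq start of a gene gave 4, both chosen after seeing the data. Under none of these alternatives was a member called in every list of one diet and in no list of the other, and with a library left out such a pattern could not reach p under 0.05 either. Over all genes with a placed start, 11.1% were called in all lists in place of 20.2%. The number of members with p under 0.05 by rank stayed at 0 in the alternatives that could reach it, also with libraries without a call placed below their last peak for all 10 members. By width it was 1 when widths were ranked within lists, for Rbl1 alone, and 0 otherwise.

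Directions were less steady. With each library left out, rank differences (HFD-LSK minus LFD-LSK) ran from -872.9 to 806.1 for E2f6, from -243.1 to 5099 for Rbl1 and from 258.4 to 1290.0 for Rbl2, and width differences from 76.0 to 321.5 bp, from -319.2 to 220.8 bp and from -83.25 to 404.2 bp. No such test can reach p under 0.05, since the smallest p is 0.0667 or 0.1. Ranking by summit fragments turned E2f6 to 725.5, and ranking as percent of the list turned Rbl2 to -1.463 percentage points. Width ranks turned E2f6 to -1227 and Rbl2 to -873.0 places, negative meaning farther from the top in HFD-LSK. Libraries that share a replicate number did not deviate together, with r of 0.073, 0.018 and -0.012 across genes for numbers 1, 2 and 3, and 1 of 3 HFD-LSK libraries was closest to its own number. With the replicate block the rank differences were -803.5, 2682 and 1153 and the width differences 123.7, -217.7 and -79.0 bp for E2f6, Rbl1 and Rbl2. The smallest p of 3 pairs is 0.25. The causes of these shifts were not tested. Precision was limited by 3 and 4 libraries and by summits of few fragments.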
